A study of Mus musculus with 21 samples.

Results

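Neuro2a is a mouse neuroblastoma cell line that grows in culture and keeps features of developing sympathetic neurons. Of the 21 libraries in the series, 12 came from Neuro2a, and the 6 described here are those whose library names carry the number 7 (library set 7). They were chosen by those names, with the high level of the activator transcript in this set known. In 3 libraries (CRISPRa) the cells had received 750 ng of a guide RNA plasmid and 750 ng of a plasmid for sadCas9-VP64. In the other 3 (VP64-only) they had received the sadCas9-VP64 plasmid without a guide. PolyA-selected RNA was sequenced. Both groups thus share the cell line, the medium and the activator, and differ in the guide plasmid. The labels name no guide against another target and give no amount of plasmid for VP64-only cells, so effects of the guide, of its plasmid and of the amount of DNA cannot be told apart. They state neither a harvest time, nor what the set numbers 7 and 8 stand for, nor that the replicates were separate cultures, and p-values measure only the spread between these libraries, which may be technical.

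In CRISPR activation a catalytically dead Cas9 carries a transcriptional activator, here VP64, to a promoter that the guide RNA pairs with. The series is titled for SCN2A, the gene of the neuronal sodium channel Nav1.2, in which loss of function of a copy is linked to autism and intellectual disability. Foreign DNA and RNA in a cell are also known to be read by cytosolic sensors, which switch on interferons. Secreted interferons then act through JAK kinases and STAT and IRF transcription factors on a large set of antiviral genes.

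Levels are read counts per 1000000 reads of a library (CPM) and changes are differences of log2(CPM + 0.5), CRISPRa minus VP64-only, given with the standard error (SE) of a limma fit over the 6 libraries. This scale understates the changes of genes near 0. A gene rose or fell where its adjusted p over the 14570 genes tested (at least 0.5 CPM in at least 3 libraries) was under 0.05. Estimated depth was 16000000 to 18000000 reads per library. Of the 18 sympathetic and neuroblastoma markers, 14 reached 1 CPM in all 6 libraries, while Hand1 was at 0. The 6 macrophage markers summed to 1.22 to 1.94 CPM in CRISPRa libraries and 1.41 to 1.84 CPM in VP64-only libraries, with Csf1r at 0.557 to 1.26 CPM and Ptprc and C1qa at 0 in all 6. The 4 endothelial markers summed to 8.51 to 8.67 CPM in CRISPRa libraries and 4.93 to 6.78 CPM in VP64-only libraries, with Pecam1 at 4.74 to 6.95 CPM over the 6 and Cldn5 at 0. Of the 4, Cdh5, a cadherin of endothelial junctions, was higher with the guide (1.79 ± 0.24). It passed the filter on low values only through its CRISPRa libraries and so had to differ. The part of these markers in the results was not tested. The sadCas9-VP64 transcript was present at 1683, 2093 and 2154 CPM in CRISPRa libraries, against 2505, 2646 and 2497 CPM in VP64-only libraries. It was lower with the guide in every library (ratio of means 0.775, exact two-sided permutation p = 0.1, the smallest that 3 against 3 can give). A transcript of mCherry and the puromycin resistance gene was at 4626, 5782 and 5481 CPM in CRISPRa libraries and at 0 in the 3 VP64-only libraries, where 3 reads correspond to at most 0.187 CPM. The labels do not say which plasmid carries it.

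Scn2a (ENSMUSG00000075318) was higher in all 3 CRISPRa libraries than in any VP64-only library. It had 4.53, 4.56 and 5.33 CPM in CRISPRa libraries, against 3.18, 3.46 and 2.84 CPM in VP64-only libraries. The change was 0.54 ± 0.16 on the log2 scale (limma adjusted p = 0.0123) and the ratio of mean CPM was 1.52, and the exact permutation p of the CPM values was 0.1, the smallest possible. The call was lost with quantile scaling (adjusted p = 0.0808), without a filter on low values (0.072) and without CRISPRa replicate 3 (0.0542). In bulk RNA, more cells that express a gene and more of its RNA per cell cannot be told apart. The bases before the annotated Scn2a start sites are where an activator would be expected to act, and RefSeq lists a pair of such sites on chromosome 2 of GRCm38.p6, each shown here from 250 bases before the start to the last base before it. The upstream site is at chr2:65620519-65620768, plus strand, and the downstream site at chr2:65668436-65668685, plus strand.
Scn2a, upstream start: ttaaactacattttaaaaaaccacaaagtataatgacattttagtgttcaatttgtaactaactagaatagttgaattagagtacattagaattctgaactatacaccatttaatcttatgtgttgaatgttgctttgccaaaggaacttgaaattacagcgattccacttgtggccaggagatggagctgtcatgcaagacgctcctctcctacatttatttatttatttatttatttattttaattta
Scn2a, downstream start: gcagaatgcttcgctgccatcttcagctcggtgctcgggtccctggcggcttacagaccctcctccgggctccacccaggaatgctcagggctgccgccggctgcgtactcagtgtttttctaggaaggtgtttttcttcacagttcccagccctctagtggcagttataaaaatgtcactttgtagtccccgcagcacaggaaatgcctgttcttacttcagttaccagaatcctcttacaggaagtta
The sequence of the guide is not given in the sources used here and was not placed on these windows. The change is that of the whole gene, since the levels do not separate start sites.

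The other sodium channels gave no larger change that passed. Of 14 subunit genes, 8 were measured, 3 rose and none fell, against 29.7% of all genes tested that rose and 16.2% that fell. The list's median change was 0.01, beside 0.09 over all genes. Scn9a, which encodes Nav1.7, the channel of pain-sensing neurons, had 45.9, 41.2 and 47.5 CPM in CRISPRa libraries, against 38.2, 37 and 39.2 CPM in VP64-only libraries (0.23 ± 0.07). Scn8a, which encodes Nav1.6, had 42.1, 45 and 41 CPM with the guide and 35.1, 40 and 36.5 CPM without it (0.20 ± 0.07). With median-of-ratios scaling 1 of the 8 rose and with quantile scaling none rose and 1, Scn3b, fell, so that the calls of Scn8a and Scn9a rest on the scaling. The accessory subunit Scn3b was at -0.18, and the channels Scn3a and Scn4a, which lay between 0.222 and 0.999 CPM, were at -0.31 and -0.23, none of which passed.

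Among 17 genes of the stretch of chromosome 2 around Scn2a, 11 were measured, 2 rose (Scn9a and Ifih1) and 3 fell. That is a share of 45.5%, near the 45.9% of all genes tested, and the median change was -0.22. With median-of-ratios scaling 1 rose and 5 fell, and with quantile scaling 1 rose and 6 fell, so these counts rest on the scaling. Fign, which encodes the microtubule-severing enzyme fidgetin, had 38.9, 38.1 and 37.1 CPM in CRISPRa libraries, against 57.5, 54.2 and 60.2 CPM in VP64-only libraries (-0.58 ± 0.06). Galnt3, a glycosyltransferase, had 13.2, 10.9 and 13.7 CPM with the guide and 19.7, 17.9 and 14.1 CPM without it (-0.43 ± 0.13), and its call was lost without CRISPRa replicate 2 or VP64-only replicate 1. Ifih1, which encodes the RNA sensor MDA5, rose by 0.86 and is described below with the sensors.

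**Figure D1:**
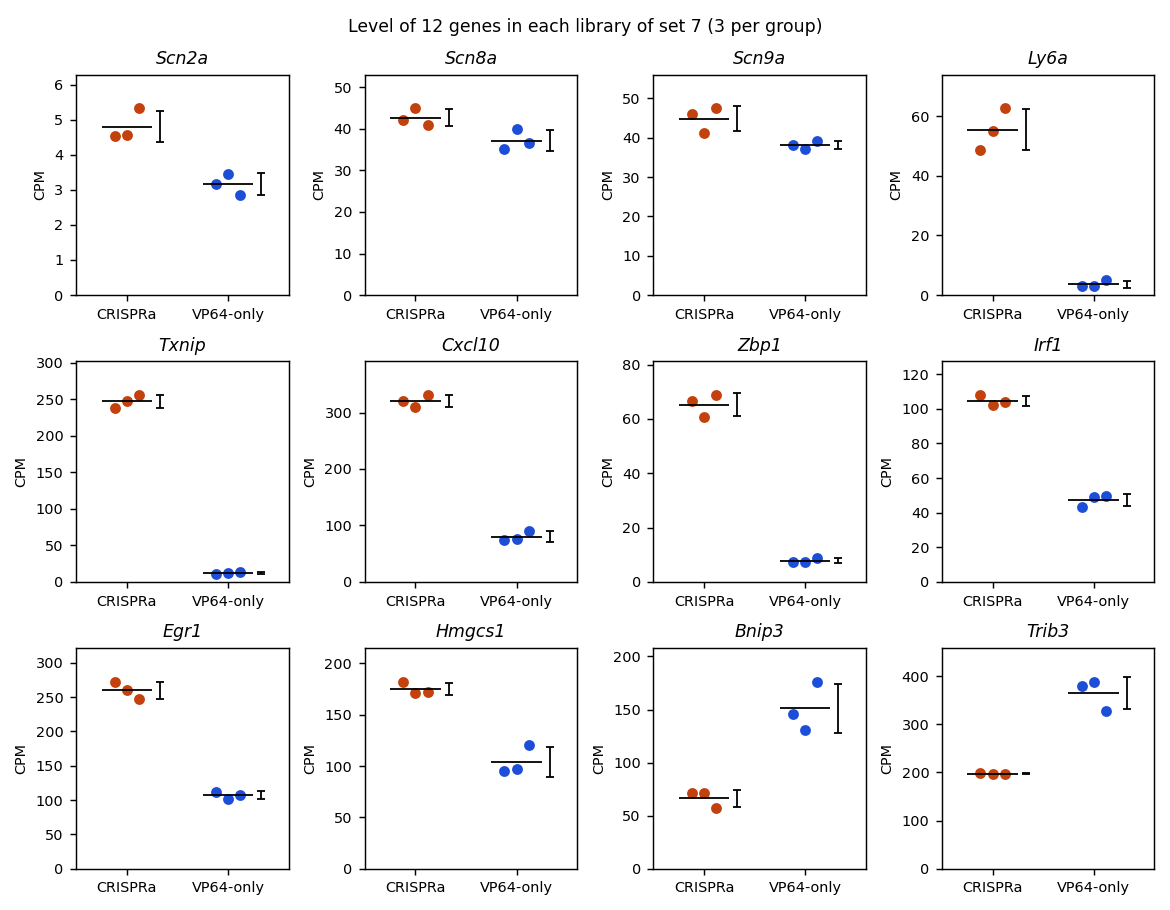
CPM of 12 genes in each library of set 7, with CRISPRa libraries (red) left of VP64-only libraries (blue), a line at the mean and a bar of 1 SD (n = 3 each). The groups do not overlap in any panel.

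Across the transcriptome 6684 genes passed (45.9% of 14570), 4321 rose and 2363 fell. Most changes were small: 354 genes rose and 78 fell by at least 2-fold. The 3 libraries of a group did not overlap those of the other in 7905 genes (54.3%). With median-of-ratios scaling 3100 rose and 3405 fell, and with quantile scaling 3065 rose and 3173 fell, so the preponderance of rises rests on CPM scaling. The median of all genes was 0.09 on CPM scaling, 0.01 on median-of-ratios and -0.01 on quantile scaling. CRISPRa libraries held 21860 to 22099 features above 0 and VP64-only libraries 20385 to 20793.

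**Figure D2:**
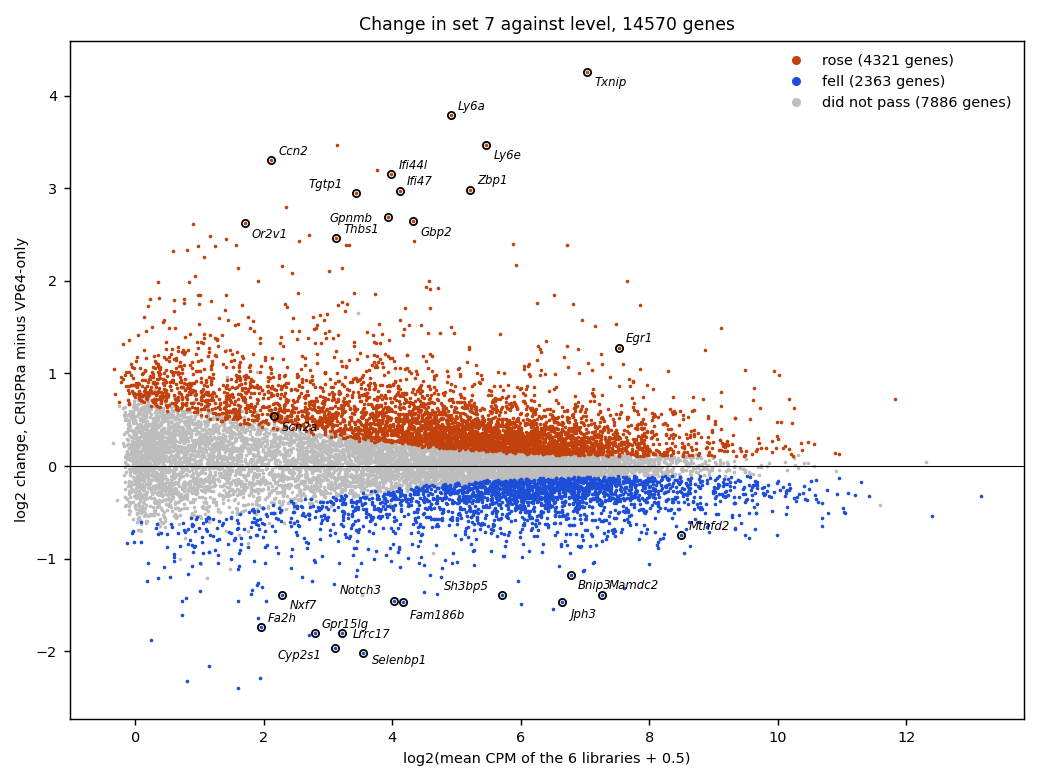
Log2 change (vertical, CRISPRa minus VP64-only) against log2 of the mean CPM of the 6 libraries plus 0.5 (horizontal) for 14570 genes, in red where the gene rose, blue where it fell and grey where it did not pass. The 12 largest rises and 11 of the largest falls among named genes of at least 2 CPM are circled, with 4 others for orientation. Txnip lies highest at 4.26, and the circled falls lie between -1.39 and -2.02.

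The largest rise by the rule for named genes was that of Txnip, which encodes the thioredoxin-interacting protein, an inhibitor of thioredoxin that also limits glucose uptake. It had 238, 248 and 256 CPM in CRISPRa libraries, against 11.3, 12.2 and 14 CPM in VP64-only libraries. All CRISPRa libraries were far above all VP64-only libraries, with a ratio of means of 19.8, and the change was 4.26 ± 0.07 (limma adjusted p = 9.32e-16). Txnip is known to follow glucose through the factors MondoA and ChREBP, which bind pairs of E-box-like letters. In the human promoter this element is a pair of CACGAG. The letters CACGAGNNNNNCACGAG (either strand) stand in the 250 bases before the mouse start, shown because they carry this element in capitals (chr3:96557807-96557956, plus strand, GRCm38.p6, bases 150 to 1 before the start, RefSeq).
Txnip: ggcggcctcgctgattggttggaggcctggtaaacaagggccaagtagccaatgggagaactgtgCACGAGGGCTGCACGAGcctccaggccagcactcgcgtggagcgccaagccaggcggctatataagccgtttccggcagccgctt
Of 32851 promoter windows in the table this was the only match, while CACGAG alone stood in 5.37% of them. The letters searched were those of the element known for this gene, so the match and its rarity are no test. A match of letters is a description and shows no binding.

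The next rises were interferon-inducible genes, a group described below, and genes of the matrix and cell surface. Ly6a, which encodes the surface protein Sca-1, had 48.8, 55 and 62.7 CPM in CRISPRa libraries, against 2.87, 3.05 and 4.96 CPM in VP64-only libraries (3.79 ± 0.15). Ly6e, of the same family and known to restrict or aid entry of different viruses, had 84.2, 75.8 and 80.5 CPM with the guide and 5.05, 5.63 and 10.8 CPM without it (3.47 ± 0.18). Ccn2, the matricellular connective tissue growth factor, had 7.98, 7.61 and 6.48 CPM in CRISPRa libraries, against 0.249, 0.176 and 0.484 CPM in VP64-only libraries. Its VP64-only level was 3 to 8 reads per library, and its change was 3.30 ± 0.21. Thbs1, which encodes thrombospondin 1, had 14.7, 13.3 and 15 CPM with the guide and 2.31, 1.99 and 2.3 CPM without it (2.46 ± 0.14). Gpnmb, a transmembrane glycoprotein of lysosomes and melanosomes, had 20.7, 27.5 and 29.4 CPM with the guide and 3.68, 3.52 and 3.45 CPM without it (2.69 ± 0.13). Or2v1, an olfactory receptor gene, had 6.22, 4.32 and 4.78 CPM with the guide and 0.499, 0.293 and 0.424 CPM without it (2.62 ± 0.21), with 5 to 8 reads per VP64-only library. Ccn2 and Or2v1 passed the filter on low values only through their CRISPRa libraries and so had to differ.

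The largest falls by the same rule lay between -1.39 and -2.02. Selenbp1, a methanethiol oxidase and a member of the hypoxia list here, had 4.63, 5.04 and 2.83 CPM in CRISPRa libraries, against 16.8, 15.8 and 22 CPM in VP64-only libraries (-2.02 ± 0.18). Cyp2s1, a cytochrome P450, had 3.11, 3.3 and 2.67 CPM with the guide and 13.3, 12.4 and 14.2 CPM without it (-1.97 ± 0.14). Fa2h, which hydroxylates fatty acids of myelin lipids, had 1.19, 1.26 and 1.28 CPM with the guide and 5.99, 6.86 and 3.63 CPM without it (-1.74 ± 0.21). Their ratios of means were 0.229, 0.228 and 0.226.
Mamdc2, whose protein carries MAM domains, had 84.5, 80.7 and 86.1 CPM in CRISPRa libraries, against 251, 227 and 187 CPM in VP64-only libraries (-1.39 ± 0.08). Jph3, a junctophilin that ties the endoplasmic reticulum to the plasma membrane in neurons, had 52.6, 54.3 and 49.5 CPM with the guide and 164, 155 and 121 CPM without it (-1.47 ± 0.08). Sh3bp5, an exchange factor for Rab11, had 28.6, 27.6 and 28.4 CPM with the guide and 80.8, 81.1 and 64.5 CPM without it (-1.40 ± 0.08). In Jph3, Sh3bp5 and Mamdc2 the lowest VP64-only library was replicate 3, which also stood apart on the second principal component (11% of the variance, against 63.5% on the first, which separated the groups). The receptor gene Notch3 changed by -1.46, Lrrc17, a leucine-rich repeat protein, by -1.80, Gpr15lg, the ligand of the receptor GPR15, by -1.80, Fam186b by -1.47 and Nxf7, of the RNA export factor family, by -1.39.

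Innate immune genes that rose were found among sensors, signalling genes and effectors, and many of them were well above 0 in VP64-only libraries already. Of 30 symbols of sensors and regulators of foreign nucleic acid, 19 were measured, 14 rose and none fell (median 0.54). The 30 symbols also count older names of Rigi and Sting1. The share that passed was 73.7%, beside 45.9% of all genes tested, and with median-of-ratios scaling 12 rose and 1 fell. Zbp1, which binds left-handed double helices and can start necroptosis, had 66.5, 60.6 and 68.8 CPM in CRISPRa libraries, against 7.3, 7.38 and 8.84 CPM in VP64-only libraries (2.98 ± 0.09, limma adjusted p = 5.70e-12). The helicase sensors of RNA rose less: Ifih1 had 123, 111 and 124 CPM with the guide and 60.8, 66.1 and 70.6 CPM without it (0.86 ± 0.06), and Dhx58, which encodes their regulator LGP2, had 92.8, 92 and 84.6 CPM with the guide and 38.2, 42.8 and 45.9 CPM without it (1.08 ± 0.07). Nlrc5, which activates class I genes, had 17.9, 15.2 and 15.8 CPM with the guide and 3.31, 2.46 and 2.42 CPM without it (2.39 ± 0.15). The DNA sensor Cgas rose by 0.54 and its partner Sting1 by 0.62, whereas the adaptor Mavs at -0.03 and the kinase Tbk1 at 0.07 did not pass. The ratio of means was 8.33 for Zbp1 and 1.82 for Ifih1.

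Of 26 interferon and signalling genes, 19 were measured, 10 rose and none fell (median 0.35). The share that passed, 52.6%, was near the 45.9% of all genes tested. With median-of-ratios scaling 10 rose and 3 fell, and with quantile scaling 10 rose and 1 fell. The transcription factor Irf1 had 108, 102 and 104 CPM in CRISPRa libraries, against 43.3, 48.9 and 49.4 CPM in VP64-only libraries (1.14 ± 0.06). Stat2, which carries the interferon signal to the nucleus, had 362, 330.4 and 329 CPM with the guide and 191, 169 and 218 CPM without it (0.83 ± 0.07). Usp18, which removes ISG15 from proteins and damps the receptor, rose by 0.57 ± 0.05, and the inhibitor Socs1 by 1.53 ± 0.15. The receptor chains and kinases did not pass: Ifnar1 was at 0.10, Ifnar2 at -0.13, Jak1 at -0.06, Jak2 at -0.10 and Tyk2 at 0.06.

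Among the antiviral effectors 65 of 68 were measured, 61 rose and 1, Ifi27, fell (median 0.98, lowest -0.28, highest 3.15). Rsad2, which encodes viperin, an enzyme that makes a chain-ending nucleotide, had 856, 781 and 812 CPM in CRISPRa libraries, against 284, 280.3 and 306 CPM in VP64-only libraries (1.49 ± 0.05). Ifit1, which binds foreign RNA caps, had 691, 624 and 664 CPM with the guide and 273, 260.3 and 295 CPM without it (1.26 ± 0.05). Samd9l, a restriction factor of poxviruses, had 188, 155 and 177 CPM with the guide and 50.3, 48.9 and 54.2 CPM without it (1.75 ± 0.07). All CRISPRa values of these 3 were more than 2 times the highest VP64-only value.
The GTPases that attack the vacuoles of intracellular pathogens differed in the size of their change, with 1.02 in Gbp6 and 0.81 in Gbp10. Gbp2 had 33.7, 30.9 and 37.7 CPM with the guide and 4.8, 4.81 and 5.51 CPM without it (2.64 ± 0.11), Ifi47 35.4, 25.4 and 29.7 CPM with the guide and 3.8, 2.46 and 4.05 CPM without it (2.97 ± 0.16), and Tgtp1 19.6, 14.6 and 21.6 CPM with the guide and 1.79, 2.38 and 1.72 CPM without it (2.95 ± 0.17). Ifi44l, an interferon-induced gene of the IFI44 family, had 30.2, 23.3 and 30 CPM with the guide and 2.31, 1.93 and 4.18 CPM without it (3.15 ± 0.19). Iigp1, of the same GTPase family as Ifi47, had 194, 149 and 185 CPM in CRISPRa libraries, against 33.7, 23.1 and 45.6 CPM in VP64-only libraries (2.39 ± 0.16). The Gbp, Tgtp, Ifit3 and histone genes and the class I H2 genes have near-identical copies among which reads may have been divided, and their single values are uncertain. Ifitm2 and Ifitm3, which block viral entry, were at -0.15 and 0.03 without passing.

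Interferon-stimulated promoters are known to hold the response element whose core is GAAANNGAAA (TTTCNNTTTC on the other strand). It stood in the 250 bases before the start in 27 of 51 antiviral effectors with a window, 52.9%, against 3.18% of the 9945 genes tested that have a window and 2.98% of all 32851 windows. Stretches of 100 or 120 bases of these windows that hold the core, in capitals, are shown for genes described here, from GRCm38.p6 (RefSeq). Cxcl10 lies at chr5:92349020-92349139, minus strand, Isg15 at chr4:156200819-156200938, minus strand, Rsad2 at chr12:26456513-26456612, minus strand, Ifit1 at chr19:34640749-34640848, plus strand, Ifit3 at chr19:34583339-34583438, plus strand and Gbp2 at chr3:142620563-142620662, plus strand.
Cxcl10: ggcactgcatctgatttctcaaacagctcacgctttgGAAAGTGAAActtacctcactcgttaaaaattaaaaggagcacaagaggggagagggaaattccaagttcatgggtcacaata
Isg15: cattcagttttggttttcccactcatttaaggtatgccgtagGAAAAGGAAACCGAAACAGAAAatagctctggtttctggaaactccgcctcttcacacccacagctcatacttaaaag
Rsad2: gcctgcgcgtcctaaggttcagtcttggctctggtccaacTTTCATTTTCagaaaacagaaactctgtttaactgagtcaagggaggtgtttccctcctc
Ifit1: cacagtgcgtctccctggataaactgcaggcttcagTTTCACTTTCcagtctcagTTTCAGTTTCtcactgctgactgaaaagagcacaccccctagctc
Ifit3: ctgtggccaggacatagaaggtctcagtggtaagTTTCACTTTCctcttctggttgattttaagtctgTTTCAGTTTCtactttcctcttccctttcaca
Gbp2: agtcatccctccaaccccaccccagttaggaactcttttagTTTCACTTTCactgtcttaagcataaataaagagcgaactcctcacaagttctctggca
Ifit1 and Ifit3 each hold the core in 2 places, and Isg15 in 3 overlapping ones. Their changes ranged from 0.75 in Isg15 to 2.64 in Gbp2, with 1.85 in Ifit3. The sensors held the core in 1 of 14 windows (7.14%).

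All 17 antigen presentation genes were measured and rose, with a median change of 0.59, whereas with quantile scaling 16 rose. Psmb10 and Psmb8, subunits of the immunoproteasome, had 109.6, 109 and 109 CPM and 171, 169 and 162 CPM in CRISPRa libraries, against 50.9, 55.7 and 58.1 CPM and 102, 96.1 and 110.1 CPM in VP64-only libraries (0.99 ± 0.06 and 0.71 ± 0.05). Tap1, which pumps peptides into the endoplasmic reticulum, had 189, 173 and 163 CPM with the guide and 101, 97.8 and 109.5 CPM without it (0.77 ± 0.06). H2-D1, a class I heavy chain, had 413, 407 and 387 CPM with the guide and 275, 255 and 269.8 CPM without it (0.59 ± 0.04). The light chain B2m rose by 0.46 ± 0.05.

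Of 26 chemokine and NF-kappaB genes, 19 were measured, 16 rose and 1, Nfkb1, fell (median 0.76). Cxcl10, the chemokine that draws T cells through CXCR3, had 321, 310.2 and 331 CPM in CRISPRa libraries, against 73.8, 76 and 90.8 CPM in VP64-only libraries (2.0 ± 0.06, limma adjusted p = 5.91e-12). Ccl5, another chemokine, had 20.8, 16.2 and 19.3 CPM with the guide and 7.17, 7.03 and 7.2 CPM without it (1.33 ± 0.11), and the cytokine Il6 had 39.5, 42.6 and 48.7 CPM with the guide and 22.3, 20.9 and 21.5 CPM without it (0.99 ± 0.08). Nfkb2, the precursor of the p52 subunit, had 75.1, 76 and 71.8 CPM with the guide and 45.9, 43.7 and 41.6 CPM without it (0.76 ± 0.06), whereas Nfkb1, the precursor of p50, was at -0.29. The inhibitors Nfkbie and Tnfaip3 rose by 1.45 and 1.17. Rela and Rel did not pass.

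Of 21 cell death genes, 17 were measured, 14 rose and 1 fell (median 0.45). Mlkl, the pore former of necroptosis, had 108, 107 and 118 CPM in CRISPRa libraries, against 42.1, 46.3 and 53.8 CPM in VP64-only libraries (1.23 ± 0.07). Gsdmd, the pore former of pyroptosis, had 17.4, 19.1 and 17.4 CPM with the guide and 8.42, 9.79 and 10.6 CPM without it (0.87 ± 0.11). Bid, which links death receptors to mitochondria, had 41.9, 35.8 and 38.9 CPM with the guide and 22.3, 20.7 and 22.8 CPM without it (0.81 ± 0.08), and Xaf1, an interferon-induced partner of XIAP, had 185, 169.9 and 184 CPM with the guide and 121, 119 and 120.0 CPM without it (0.58 ± 0.05). The death ligand Tnfsf10 rose by 1.52.

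Immediate early genes, which cells switch on within minutes of growth factor, stress or calcium signals through MAP kinases, were higher with the guide. Of 32 symbols, with Cyr61 an older name of Ccn1, 28 were measured, 23 rose and none fell (median 0.64). The zinc finger factor Egr1 had 272, 260.0 and 247 CPM in CRISPRa libraries, against 112, 101 and 108 CPM in VP64-only libraries (1.28 ± 0.05). Klf10, a factor induced by TGF-beta, had 107, 113 and 129 CPM with the guide and 32, 33.9 and 36.3 CPM without it (1.76 ± 0.07), and Klf6 had 276, 266 and 298 CPM with the guide and 155, 148 and 143 CPM without it (0.91 ± 0.05). Egr3 had 3.96, 4.68 and 4.78 CPM with the guide and 0.249, 0.527 and 0.605 CPM without it (2.39 ± 0.21), with 4 to 10 reads per VP64-only library. The AP-1 genes Fos, Jun and Junb rose by 1.33, 0.65 and 0.76, whereas Srf at -0.13, Myc at 0.04 and Arc at 0.19 did not pass.

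The phosphatases and feedback inhibitors that MAP kinase signalling induces changed in the same direction, 12 of 20 rising and 1, Etv5, falling (median 0.31). Phlda1, a target of ERK signalling, had 37.9, 43.6 and 41.8 CPM in CRISPRa libraries, against 9.92, 9.79 and 11.8 CPM in VP64-only libraries (1.92 ± 0.09). Dusp1, which dephosphorylates p38 and JNK, had 33.4, 33.5 and 33.8 CPM with the guide and 14.4, 15.4 and 13.5 CPM without it (1.19 ± 0.08), Dusp10 18.9, 18 and 18.1 CPM with the guide and 8.86, 6.86 and 7.62 CPM without it (1.19 ± 0.11), and Dusp4 434, 439 and 405 CPM with the guide and 296, 278 and 271 CPM without it (0.60 ± 0.05). Spry2 rose by 0.25, whereas Spry4 at -0.09 did not pass.

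**Figure D3:**
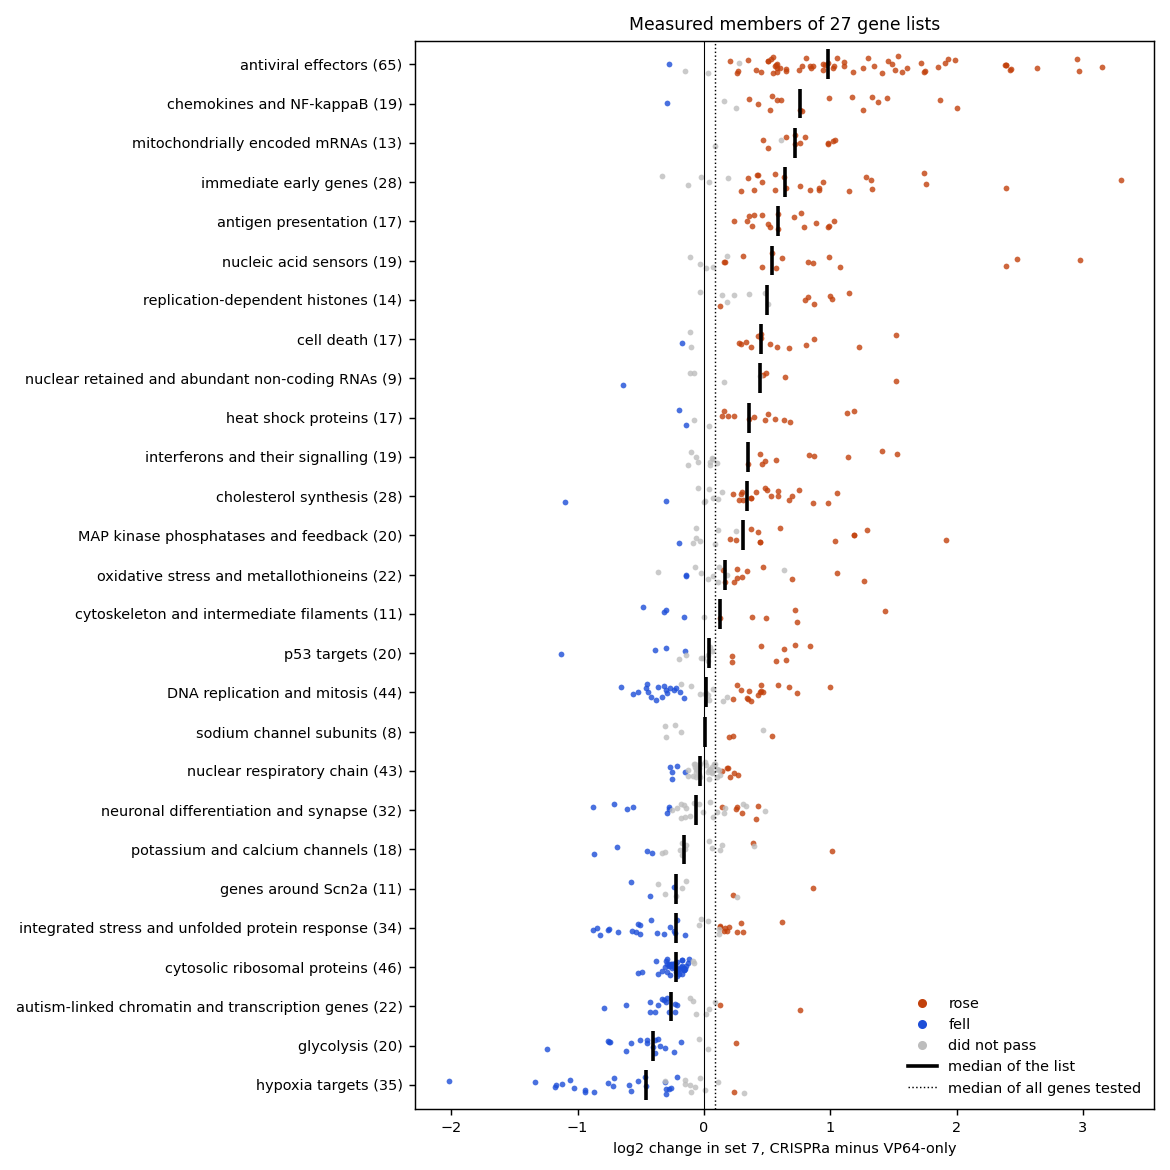
Log2 change in set 7 of each measured member of 27 gene lists (points, number measured after the name), in red where it rose, blue where it fell and grey where it did not pass. The thick bar is the list's median and the dotted line the median of all genes tested, 0.09. Antiviral effectors have the highest median, 0.98, and hypoxia targets the lowest, -0.46.

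The hypoxia-inducible factor HIF-1 activates genes when oxygen is short. A list of such genes, which also holds the regulators Hif1a, Epas1, Arnt and Vhl, was mostly lower with the guide. Of its 39 genes, 35 were measured, 24 fell and 1, Cited2, rose (median -0.46). The share that passed was 71.4%, beside 45.9% of all genes tested. Ero1a, an oxidase of the endoplasmic reticulum, had 265, 241 and 259.7 CPM in CRISPRa libraries, against 496, 489 and 487 CPM in VP64-only libraries (-0.94 ± 0.04). P4ha2, a collagen prolyl hydroxylase, had 177, 169 and 149 CPM with the guide and 341, 335 and 350.4 CPM without it (-1.06 ± 0.06), and Car12, a surface carbonic anhydrase, had 82.3, 82 and 73.3 CPM with the guide and 166, 161 and 189.7 CPM without it (-1.12 ± 0.06). The ratios of means of P4ha2 and Car12 were 0.481 and 0.459.
Stc2, a secreted glycoprotein, had 88, 86.1 and 84.6 CPM with the guide and 167, 163 and 143 CPM without it (-0.87 ± 0.06). Bnip3, a mitophagy receptor, changed by -1.17 ± 0.09, Pdk1, which closes the entry of pyruvate into mitochondria, by -0.94 ± 0.08, and Egln1, the prolyl hydroxylase that marks HIF for destruction, by -0.72 ± 0.06. Hif1a itself was at -0.11 and Arnt at -0.10, neither of which passed. Adm, which encodes adrenomedullin, had 3.23, 3.18 and 3.39 CPM with the guide and 3.56, 3.75 and 5.39 CPM without it, and its -0.31 did not pass. It fell with quantile scaling (-0.51, limma adjusted p = 0.031) and was at -0.14 without VP64-only replicate 3.

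Of the glycolysis genes 20 of 21 were measured, 17 fell and 1, Hk1, rose (median -0.40). Pgk1, phosphoglycerate kinase, had 819, 758 and 697 CPM in CRISPRa libraries, against 1286, 1252 and 1265 CPM in VP64-only libraries (-0.75 ± 0.05). Eno2, the neuronal enolase, had 39.3, 37.4 and 32 CPM with the guide and 86.7, 78.8 and 93.5 CPM without it (-1.24 ± 0.08), Pfkm, a phosphofructokinase, had 92.7, 85.3 and 81.9 CPM with the guide and 145, 141 and 148 CPM without it (-0.74 ± 0.05), and Gpi1, glucose-6-phosphate isomerase, had 579.7, 557 and 497 CPM with the guide and 855, 823 and 824 CPM without it (-0.62 ± 0.05). Gapdh changed by -0.51 ± 0.05 and Ldha by -0.39 ± 0.05, whereas the glucose transporter Slc2a1 was at -0.04 and the pyruvate dehydrogenase subunit Pdhb at 0.03. The fall of the list kept its direction with both other scalings (medians -0.49 and -0.31).
The core of the HIF binding site, ACGTG, whose letters are also part of an E-box, was searched on both strands. It stood in the 250 bases before the start in 18 of 28 hypoxia genes (64.3%) and 9 of 19 glycolysis genes (47.4%), against 25.1% of genes tested with a window and 16.6% of all windows. In other lists it stood in 35% of immediate early, 33.3% of heat shock, 32.3% of stress response and 26.7% of antigen presentation genes. In antiviral effectors and sensors it stood in 7.84% and 7.14%. It is shown in capitals in GRCm38.p6 for Bnip3 (chr7:138909567-138909666, minus strand), Pgk1 (chrX:106186920-106187019, plus strand) and Egln1 (chr8:124949255-124949354, minus strand).
Bnip3: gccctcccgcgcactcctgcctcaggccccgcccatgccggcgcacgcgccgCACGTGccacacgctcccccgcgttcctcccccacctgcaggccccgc
Pgk1: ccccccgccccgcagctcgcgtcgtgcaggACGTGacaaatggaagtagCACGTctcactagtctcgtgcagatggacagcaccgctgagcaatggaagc
Egln1: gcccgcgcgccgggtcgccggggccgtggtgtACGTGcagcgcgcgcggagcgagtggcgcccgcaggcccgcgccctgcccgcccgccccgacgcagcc
In Bnip3 the core is read on both strands of an E-box, and Pgk1 holds 2 separate copies.

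Transcripts of the mitochondrial genome were higher. All 13 mRNAs were measured, 11 rose and none fell (median 0.72), and mitochondrial features held 1.37 to 1.47% of CPM in CRISPRa libraries, against 0.816 to 1.01% in VP64-only libraries. The complex I subunits mt-Nd4 and mt-Nd1 had 1043, 971 and 886 CPM and 1413, 1435 and 1479.8 CPM in CRISPRa libraries, against 522, 458 and 430.4 CPM and 959, 848 and 821 CPM in VP64-only libraries. Their changes were 1.04 ± 0.07 and 0.72 ± 0.05, and those of mt-Cytb and mt-Nd2 were 0.98 ± 0.07 and 0.65 ± 0.05. mt-Co3 was at 0.09. Of 43 nuclear genes of the respiratory chain, 6 rose and 5 fell (median -0.03). Cox8a, Atp5f1c and Atp5f1d were at -0.27, -0.25 and -0.21, and cytochrome c, Cycs, at 0.27, and the highest change in the list was 0.27. With median-of-ratios scaling 2 of the 43 rose and 15 fell.

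Of 46 mRNAs of cytosolic ribosomal proteins 44 fell and none rose, by small amounts (median -0.22). Rps4x had 1767, 1717 and 1732 CPM in CRISPRa libraries, against 2513, 2454 and 2375 CPM in VP64-only libraries (-0.49 ± 0.04), and Rpl3 had 927, 914 and 927 CPM with the guide and 1340.2, 1375 and 1253 CPM without it (-0.52 ± 0.04). Rpl22 and Rpl5 changed by -0.38 ± 0.04 and -0.36 ± 0.04. The list's direction was kept with median-of-ratios (46 fell) and quantile scaling (33 fell, 1 rose).

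Cell cycle genes changed in both directions. Of 44 replication and mitosis genes measured, 16 rose and 18 fell (median 0.02). Cyclin D1, Ccnd1, had 499.6, 517 and 519 CPM in CRISPRa libraries, against 299, 303 and 315 CPM in VP64-only libraries (0.74 ± 0.04), and the licensing factors of replication Cdc6 and Mcm6 rose by 1.00 ± 0.11 and 0.67 ± 0.07. Kif11, the spindle motor, had 107, 116 and 116 CPM with the guide and 173, 180.1 and 181 CPM without it (-0.66 ± 0.05), Top2a, a topoisomerase of mitotic chromosomes, 398, 433 and 468 CPM with the guide and 582, 642 and 632 CPM without it (-0.52 ± 0.06), and Ube2c, which helps destroy mitotic cyclins, 96.2, 103 and 101 CPM with the guide and 134, 136 and 142 CPM without it (-0.45 ± 0.05). All 6 measured Mcm2 to Mcm7 genes rose, and Ccnb1, Cenpf and Aurkb fell. That division was seen after the values were known.
Of 34 histones, a list of replication-dependent ones that also holds the replication-independent H1f0, 14 were measured and 7 rose (median 0.50). H1f2 had 21.7, 19.3 and 18.5 CPM with the guide and 10.4, 8.56 and 9.8 CPM without it (1.01 ± 0.11). H2bc4 rose by 1.15 ± 0.17, H1f3 by 1.00 ± 0.26 and H4c9 by 0.87 ± 0.27. Most histone mRNAs have no polyA tail, and their levels in polyA-selected RNA are low. H4c9 overlapped between the groups and lost its call under 5 alternatives. Of 20 measured p53 targets 8 rose and 4 fell, a share of 60% beside 45.9% of all genes tested. Cdkn1a, the inhibitor p21, had 77.5, 87.3 and 85.4 CPM with the guide and 53.6, 54.3 and 51.2 CPM without it (0.65 ± 0.06). Phlda3 and Aen rose by 0.72 ± 0.07 and 0.57 ± 0.06. Zmat3, an RNA-binding target, had 84.5, 79.1 and 69.8 CPM with the guide and 167, 173 and 171 CPM without it (-1.13 ± 0.06). Mdm2, p53's ligase, was at 0.06. The p53 list's median of 0.04 and that of the cell cycle list turned sign with both other scalings.

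In the integrated stress response the factor ATF4 raises amino acid synthesis and transport, and the unfolded protein response raises chaperones of the endoplasmic reticulum. Of 34 measured genes of a list that joins both, 19 fell and 10 rose (median -0.22), a share of 85.3% beside 45.9% of all genes tested. Trib3, a pseudokinase induced by ATF4, had 198, 197 and 197 CPM in CRISPRa libraries, against 380.2, 388 and 327 CPM in VP64-only libraries (-0.88 ± 0.06). Mthfd2, a mitochondrial folate enzyme, had 267, 272 and 268 CPM with the guide and 463, 449.7 and 442 CPM without it (-0.75 ± 0.04), Psat1, of serine synthesis, 555, 553 and 552 CPM with the guide and 789.7, 787 and 812 CPM without it (-0.52 ± 0.04), and Herpud1, of protein degradation at the endoplasmic reticulum, 208, 199 and 202 CPM with the guide and 399, 359.9 and 319 CPM without it (-0.82 ± 0.06). Atf4 changed by -0.24 ± 0.04, Asns by -0.51 ± 0.04 and Ddit3, which encodes CHOP, by -0.54 ± 0.07. Creld2, a protein of the endoplasmic reticulum, rose by 0.62 ± 0.07 and the factor Xbp1 by 0.26 ± 0.06. With median-of-ratios scaling 3 rose and 21 fell.

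Heat shock proteins, chaperones that cells make when proteins unfold, and their factors rose in 13 of 17 measured cases and fell in 2 (median 0.36). Hsp90aa1, the inducible HSP90, had 953, 995 and 1113 CPM in CRISPRa libraries, against 624, 674 and 684 CPM in VP64-only libraries (0.63 ± 0.05), and the small heat shock protein Cryab had 31.6, 31.5 and 28.3 CPM with the guide and 13.1, 12.4 and 13.8 CPM without it (1.19 ± 0.09). Bag3 and Hsph1, which work with HSP70, rose by 0.56 ± 0.05 and 0.68 ± 0.06. Mitochondrial Hspd1 and the factor Hsf2 were the 2 that fell. Of 22 measured oxidative stress genes 11 rose and 2 fell (median 0.17), a share of 59.1% beside 45.9% of all genes tested. The NRF2 targets Srxn1 and Nqo1 had 47.9, 51.4 and 54.3 CPM and 23.2, 23.2 and 26 CPM in CRISPRa libraries, against 21.1, 24.4 and 17.9 CPM and 9.23, 11.5 and 13.9 CPM in VP64-only libraries (1.27 ± 0.10 and 1.05 ± 0.12). The zinc exporter Slc30a1 rose by 0.70 ± 0.06 and the peroxidase Gpx4 by 0.34 ± 0.05, and Hmox1 was at 0.12.

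Of 28 measured genes of cholesterol synthesis, which SREBP2 drives when sterols are low, and of sterol handling, 19 rose and 2, Abca1 and Scd2, fell (median 0.34). Hmgcs1, an early enzyme of the pathway, had 182, 171 and 172 CPM in CRISPRa libraries, against 94.8, 97.2 and 121 CPM in VP64-only libraries (0.75 ± 0.07), and Hsd17b7 had 40.7, 44.1 and 44.2 CPM with the guide and 17.3, 18.8 and 26.7 CPM without it (1.05 ± 0.12). Idi1, of isoprenoid synthesis, rose by 0.98 ± 0.14. Abca1, the exporter of cholesterol that sterols induce, had 18.3, 16.5 and 16 CPM with the guide and 37.6, 40.3 and 33.2 CPM without it (-1.10 ± 0.09). In Hmgcs1 and Hsd17b7 the VP64-only library nearest to the CRISPRa libraries was replicate 3. The summed level of the list did not separate the groups, at 6464, 6271 and 6102 CPM in CRISPRa libraries, against 5240.2, 5567 and 6588 CPM in VP64-only libraries, where replicate 3 is the highest of the 6. Srebf2 itself was at 0.04.

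Neuronal and channel genes passed no more often than all genes tested (45.9%), with 40.6% of the differentiation and synapse genes and 33.3% of the potassium and calcium channel genes. Of 32 measured differentiation and synapse genes 6 rose and 7 fell (median -0.06). Ank2, which encodes ankyrin-B, an anchor of channels and adhesion proteins, had 47.9, 46.8 and 48.4 CPM in CRISPRa libraries, against 80.5, 80.7 and 73.9 CPM in VP64-only libraries (-0.71 ± 0.06). Ank3, which encodes ankyrin-G, the anchor of sodium channels at the axon initial segment, rose by 0.41 ± 0.07. Syt1, the calcium sensor of transmitter release, had 96, 82.1 and 78.6 CPM with the guide and 124, 122 and 132 CPM without it (-0.56 ± 0.07), Dlg2, a postsynaptic scaffold, changed by -0.61 ± 0.09, and the adhesion molecule L1cam by -0.28 ± 0.04.
Of 18 measured potassium and calcium channel genes 2 rose and 4 fell (median -0.16). Cacna1c, the pore of the L-type calcium channel, had 86.1, 82.7 and 81.1 CPM in CRISPRa libraries, against 161, 154 and 142 CPM in VP64-only libraries (-0.87 ± 0.05), and its accessory subunit Cacnb3 had 35.8, 33.8 and 37.6 CPM with the guide and 55.8, 63.5 and 54.3 CPM without it (-0.69 ± 0.07). Kcnh2, the potassium channel hERG, changed by -0.45 ± 0.05, and Hcn3, a pacemaker channel, rose by 1.01 ± 0.17.
Of 22 measured chromatin and transcription genes linked to autism, 14 fell and 2, Myt1l and Smarcc2, rose (median -0.26). The remodeller Chd2 had 119, 112 and 118 CPM with the guide and 219.8, 202 and 185 CPM without it (-0.79 ± 0.06), the methyltransferase Kmt2c had 102, 87.7 and 99.3 CPM with the guide and 150.3, 154 and 139.9 CPM without it (-0.62 ± 0.06), Setd5 changed by -0.39 ± 0.04 and Auts2 by -0.43 ± 0.05, while Chd8 was at 0.02.

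Of 11 measured cytoskeletal genes 6 rose and 4 fell. Nes, the intermediate filament nestin of neural progenitors, had 71, 76.4 and 74.9 CPM in CRISPRa libraries, against 25.8, 29.5 and 26.4 CPM in VP64-only libraries (1.43 ± 0.07), and Lmna, which encodes lamins A and C, had 287, 306 and 297 CPM with the guide and 180.1, 172 and 181 CPM without it (0.74 ± 0.04). Actg1 and Acta2, cytoplasmic and smooth muscle actin, were at -0.32 ± 0.05 and -0.48 ± 0.07, and the call of Actg1 was lost with quantile scaling. Of 9 measured nuclear and abundant non-coding RNAs, 4 rose and 1 fell. Neat1, the scaffold of paraspeckles, had 26.8, 31.1 and 26.2 CPM in CRISPRa libraries, against 8.79, 9.84 and 9.68 CPM in VP64-only libraries (1.52 ± 0.10), Malat1 had 86.8, 77.4 and 79.9 CPM with the guide and 56.5, 58 and 58.3 CPM without it (0.49 ± 0.06), Snhg1, a host of small nucleolar RNAs, changed by -0.64 ± 0.07, and Peg13 rose by 0.47 ± 0.12, a call that was lost with quantile scaling. The share that passed was also near or below that of all genes for interferon signalling (52.6%), histones (50%), the non-coding RNAs (55.6%) and the nuclear respiratory chain (25.6%). It was above the 45.9% of all genes for the MAP kinase feedback (65%), autism-linked (72.7%) and sensor (73.7%) lists. Cholesterol synthesis had 75%, replication and mitosis 77.3%, immediate early genes 82.1%, and cell death and heat shock genes 88.2%. Mitochondrial mRNAs had 84.6%, the stress response list 85.3%, chemokine and NF-kappaB genes 89.5%, glycolysis 90% and the cytoskeletal list 90.9%. Antiviral effectors had 95.4%, ribosomal proteins 95.7% and antigen presentation 100%.

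The same comparison in library set 8 has its own 3 CRISPRa and 3 VP64-only libraries, labelled with the same treatments, and shares none with set 7. The sadCas9-VP64 transcript averaged 1977 ± 256 CPM in CRISPRa libraries and 2549.6 ± 83.7 CPM in VP64-only libraries of set 7, against 599.8 ± 34.3 and 349 ± 27.5 CPM in those of set 8 (SD, n = 3 each). It was thus 3.3 times as high in set 7 as in set 8 with the guide and 7.3 times as high without it, and the guide group was the lower in set 7 and the higher in set 8. In a fit of all 12 libraries the change in set 7 differed from that in set 8 in 3114 of 15293 genes (20.4%), higher in set 7 in 1772 (11.6%) and lower in 1342 (8.78%). Of the 6684 genes that passed in set 7, 2534 differed, and in 2320 of these the change was the smaller in size in set 8, whatever its sign. Choosing genes that passed in set 7 and differed favours that outcome, so the 2320 are no result about the sets. In set 8, 3521 of the 14570 genes, which were filtered on set 7 alone, passed in the fit of 12 libraries. The set 7 calls are those of the fit of 6 libraries. Both sets shared 2367 calls, 2170 in the same direction and 197 opposed. These are 67.2% of the set 8 calls, beside 45.9% of all genes tested that passed in set 7. The median size of change was 0.23 in set 7 and 0.15 in set 8. Whether depth, batch or the amount of transgene is behind a difference between the sets was not tested.

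For Scn2a the difference between the sets did not pass, at 0.06 ± 0.22 (limma adjusted p = 0.876), with 4.09, 5.02 and 4.1 CPM in CRISPRa libraries of set 8, against 2.86, 3.05 and 3.16 CPM in its VP64-only libraries. Txnip had 19.5, 15.9 and 18.1 CPM in CRISPRa libraries of set 8, against 16.4, 20 and 16.6 CPM in its VP64-only libraries, and its difference was 4.24 ± 0.13 (limma adjusted p = 1.05e-14). Of the 12 Neuro2a libraries the 3 with high Txnip were the CRISPRa libraries of set 7.

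Several groups of genes changed differently in the 2 sets. Over all genes tested, 11.6% had a higher change in set 7 and 8.78% a lower one. In cholesterol synthesis 15 of 28 differed with a higher change in set 7 and 1 with a lower change. The median change was 0.34 in set 7, and 1 gene rose and 5 fell in set 8. Of all 15293 genes in the fit of 12 libraries, 2062 rose and 1484 fell in set 8. Idi1 had 102, 96.6 and 111 CPM and 39.9, 49.5 and 71.3 CPM in CRISPRa and VP64-only libraries of set 7, against 27.1, 23.5 and 25.3 CPM and 25.8, 24 and 26.1 CPM in those of set 8 (difference 0.98 ± 0.18). In replication and mitosis 19 of 44 differed with a higher change in set 7 and 2 with a lower one: Cdc6 was at 1.00 in set 7 and -0.38 in set 8. In the stress response list 22 of 34 differed, all lower in set 7: Herpud1 was at -0.82 in set 7 and 0.15 in set 8, and Trib3 at -0.88 and -0.05. Of 28 immediate early genes 14 differed upward and 3 downward. Ccn2 differed by 2.40 ± 0.32, Egr3 by 2.20 ± 0.27, Klf10 by 1.44 ± 0.09 and Egr1 by 0.99 ± 0.08. Egr3 had 4.22, 3.8 and 4.48 CPM in CRISPRa libraries of set 8, against 3.34, 3.28 and 4.17 CPM in its VP64-only libraries, so the VP64-only libraries of set 7 were the low ones, while for Ccn2 the CRISPRa libraries of set 7 were the high ones. Thbs1 differed by 1.87 ± 0.20, Olfml2a, an olfactomedin, by 1.68 ± 0.22, and Slc15a3, a lysosomal peptide transporter, by 1.63 ± 0.49.

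The antiviral effectors went the other way: 35 of 65 had a lower change in set 7 and 5 a higher one, beside 8.78% and 11.6% of all genes tested. Their medians were 0.98 in set 7 and 1.39 in set 8. Trim30a, an interferon-induced TRIM protein, had 282, 239 and 270.1 CPM and 89.1, 79.7 and 104 CPM in CRISPRa and VP64-only libraries of set 7, against 98.3, 129.8 and 135 CPM and 12.9, 10.2 and 10.4 CPM in those of set 8 (difference -1.84 ± 0.15). Oas2, which makes the 2-5A signal for RNase L, had 299.6, 262 and 266 CPM and 218, 189.7 and 215 CPM in set 7, against 209.8, 241 and 262 CPM and 69.8, 66.6 and 59.9 CPM in set 8 (difference -1.44 ± 0.10). In both genes the VP64-only libraries of set 7 lay above those of set 8 by a larger ratio than the CRISPRa libraries did. Gbp10, Iigp1, Gbp6, Oas3 and Phf11d differed by -1.86, -1.74, -1.61, -1.54 and -1.52. Some immune genes had the higher change in set 7: Tnfaip3 was at 1.17 in set 7 and -0.16 in set 8, Sting1 at 0.62 and -0.18, and Cxcl10 at 2.0 and 1.56.

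Of the 35 hypoxia genes 24 fell in set 7 and 29 in set 8, with medians of -0.46 in set 7 and -0.60 in set 8. Over all genes tested, 16.2% fell in set 7, and 1484 of 15293 fell in set 8. A higher change in set 7 was seen in 11 of 35 and a lower one in 4, beside 11.6% and 8.78% of all genes tested. Adm differed by 1.91 ± 0.32. It had 3.23, 3.18 and 3.39 CPM and 3.56, 3.75 and 5.39 CPM in CRISPRa and VP64-only libraries of set 7, against 5.1, 2.13 and 4.67 CPM and 15.9, 19.5 and 23 CPM in those of set 8, where the VP64-only libraries alone were high. The rule also named a pair of loci that are hard to count. Rps2-ps13, a processed pseudogene of a ribosomal protein gene whose reads may come from the parent, differed by 3.65 ± 0.45 and was listed at 0 in the 3 VP64-only libraries of set 7. Rn7s1, a 7SL RNA gene, differed by -5.20 ± 1.61, with 17.4, 0 and 11.3 CPM in CRISPRa libraries and 16.5, 7.68 and 13.3 CPM in VP64-only libraries of set 7, and 0 to 27.4 CPM within set 8.

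**Figure D4:**
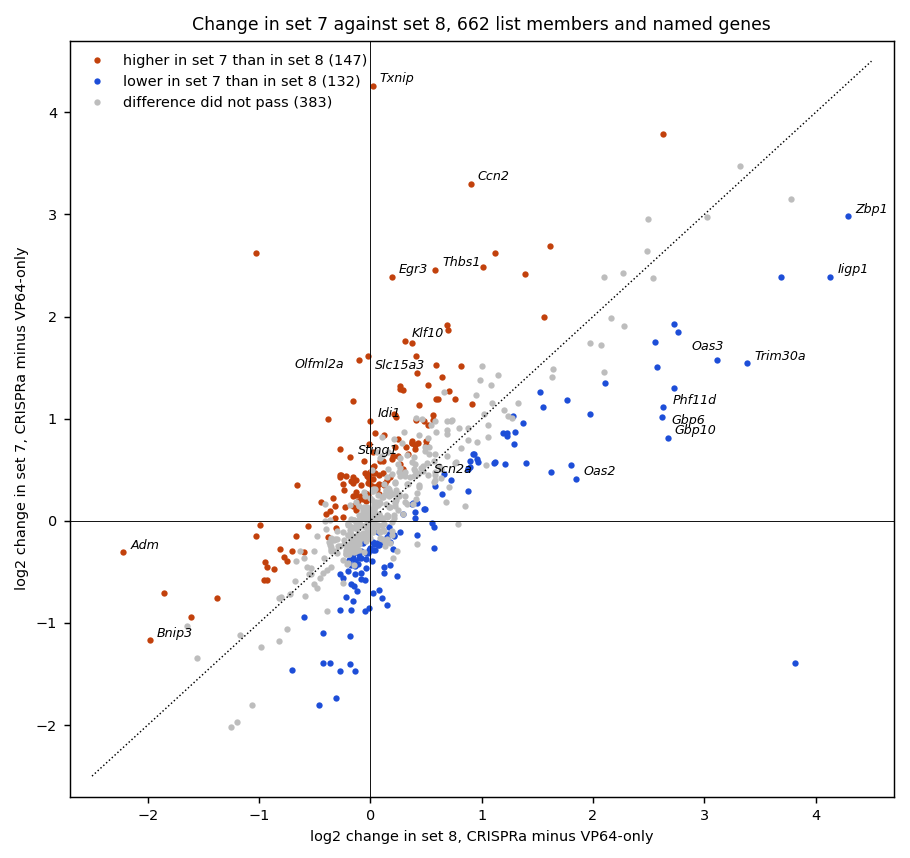
Log2 change in set 7 (vertical) against that in set 8 (horizontal), CRISPRa minus VP64-only in both, for 662 members of the gene lists and genes named by rule, in red where the change was higher in set 7, blue where it was lower and grey where the difference did not pass. The dotted line marks equal changes. Txnip lies at 4.26 in set 7 and 0.02 in set 8, and Trim30a at 1.54 and 3.38.

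**Figure D5:**
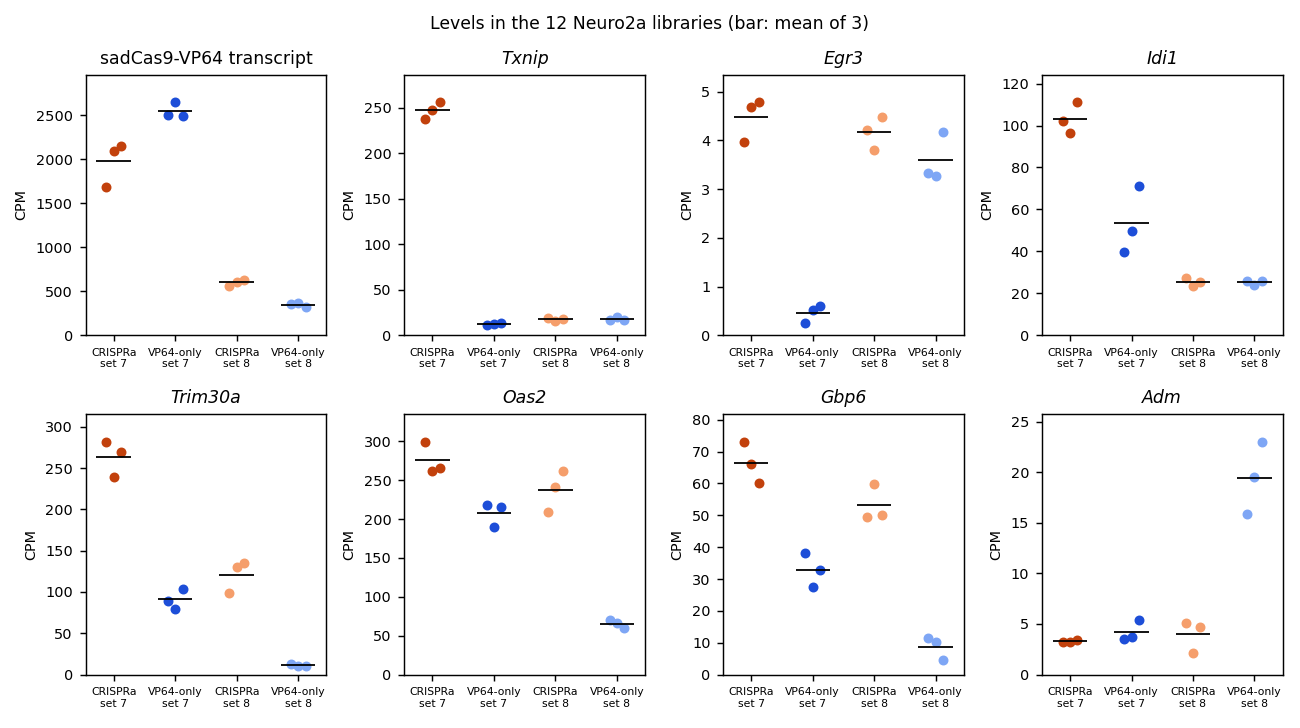
CPM in the 12 Neuro2a libraries, set 7 left of set 8 and CRISPRa left of VP64-only within each set, with a line at the mean of 3. Txnip is high in CRISPRa libraries of set 7 alone, Trim30a, Oas2 and Gbp6 are higher in VP64-only libraries of set 7 than of set 8, and Adm is high in VP64-only libraries of set 8 alone.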

How the data were processed

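PolyA RNA was sequenced from 6 Neuro2a libraries of set 7 and 6 of set 8, grouped by the sample titles and library names in the labels. The authors deposited CPM per gene, 31553 features with 2 transgenes, and each library sums to 1000000. Software named in the submitters' processing notes, without a role or order, is R 4.4, DESeq2 1.44, featureCounts and STAR 2.7.8a, with the builds mm39 and GRCm39. Strandedness, handling of reads with several alignments and annotation release are not given in the sources used here, so antisense partners cannot be told apart. The value of 1 read was taken as the most frequent CPM above 0. In set 7, 70.8 to 72.8% of values above 0 were within 0.01 of whole reads, so the CPM come from estimated reads and no count test was run. Estimated depth was 16000000 to 18000000 reads per library in set 7 and 15500000 to 21000000 in set 8. The floor for a level of 0 is 3 reads per library and covers counting error only.

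Tests used limma 3.58.1 (lmFit, eBayes with trend) in R 4.3.3 on log2(CPM + 0.5), with Benjamini-Hochberg adjustment over all genes that reached 0.5 CPM in 3 or more libraries. The difference between sets was a contrast in a fit of 12 libraries. Scripts were tested on simulated data. Permutation tests are exact and two-sided on mean CPM. Python 3.11.15 with pandas 2.3.3 and matplotlib 3.10.9 made lists and plots. The 27 gene lists, the members and the tests were chosen with earlier results of these data known. The text names Scn2a and tested sodium channels, the 12 largest rises and falls (adjusted p under 0.05, mean of at least 2 CPM, separate groups, no predicted, Riken or clone symbol), up to 4 members of each list with the smallest p, and the 8 largest differences between sets in each direction with a mean of at least 2 CPM. Some genes that these rules select are not reported here. Other list members given with values were picked after their values were seen. Promoter windows are RefSeq's, GRCm38.p6, another build than the authors', and were matched by symbol for 9945 genes tested. Mouse nuclei and the authors' deposited comparison tables were not used here. Alternatives were another pseudocount, filter or scaling, CPM without transgenes and mitochondrial genes, a replicate block, 1 fit of 12 libraries, and each replicate left out.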

Additional observations from a re-analysis of the deposited data

Results flagged for a closer look

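The change in set 7 differed from the change in set 8, by the test of the difference itself in a fit of 12 libraries, in 3114 genes, 88 of them named by rule. Values are set 7 minus set 8 on the log2 scale, each with a limma adjusted p under 0.05, and the cause of none was tested. Among innate immune and cell death genes, the change was higher in set 7 for Il6 (0.59), Cxcl10 (0.44), Psmb10 (0.43), Nfkb2 (0.33) and Irf1 (0.24). It was lower in set 7 for Gbp10 (-1.86), Trim30a (-1.84), Iigp1 (-1.74), Gbp6 (-1.61), Oas3 (-1.54), Phf11d (-1.52), Oas2 (-1.44), Zbp1 (-1.30), Usp18 (-0.82), Samd9l (-0.81), Stat2 (-0.40), Xaf1 (-0.39), Ifih1 (-0.33), H2-D1 (-0.30) and Ifit1 (-0.26). Among immediate early and MAP kinase feedback genes, the change was higher in set 7 for Ccn2 (2.40), Egr3 (2.20), Klf10 (1.44), Phlda1 (1.23), Egr1 (0.99), Dusp10 (0.60), Dusp1 (0.43) and Dusp4 (0.41).

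Among hypoxia, mitochondrial and ribosomal genes, the change was higher in set 7 for Adm (1.91), mt-Cytb (0.50), mt-Nd4 (0.49), mt-Nd1 (0.40), Cycs (0.32) and mt-Nd2 (0.31). It was lower in set 7 for Stc2 (-0.60), Ero1a (-0.35), Rps4x (-0.30), Rpl3 (-0.25), Rpl5 (-0.20) and Rpl22 (-0.18). Among cell cycle, p53 and stress genes, the change was higher in set 7 for Cryab (0.58), Srxn1 (0.56), Phlda3 (0.50), Hsp90aa1 (0.38), Ccnd1 (0.35), Gpx4 (0.33) and Slc30a1 (0.30). It was lower in set 7 for Herpud1 (-0.96), Zmat3 (-0.95), Trib3 (-0.83), Mthfd2 (-0.52) and Psat1 (-0.39).

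Among sterol genes, the change was higher in set 7 for Hsd17b7 (0.84) and Hmgcs1 (0.76). It was lower in set 7 for Abca1 (-0.67). Among cytoskeletal, channel, neuronal, chromatin and non-coding genes, the change was higher in set 7 for Neat1 (0.71), Peg13 (0.52) and Lmna (0.24). It was lower in set 7 for Ank2 (-0.73), Cacna1c (-0.69), Chd2 (-0.64), Auts2 (-0.61), Cacnb3 (-0.57), Kcnh2 (-0.56), Fign (-0.54), Snhg1 (-0.49), L1cam (-0.48), Kmt2c (-0.45), Syt1 (-0.31), Actg1 (-0.30) and Setd5 (-0.25). Among genes of no list, the change was higher in set 7 for Txnip (4.24), Rps2-ps13 (3.65), Thbs1 (1.87), Olfml2a (1.68), Slc15a3 (1.63), Or2v1 (1.50), Ly6a (1.16) and Gpnmb (1.08). It was lower in set 7 for Rn7s1 (-5.20), Fa2h (-1.43), Lrrc17 (-1.34), Jph3 (-1.33), Sh3bp5 (-1.21), Fam186b (-1.20), Mamdc2 (-1.03), Nxf7 (-0.96) and Notch3 (-0.76).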

How the results depend on the processing

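The count of 6684 genes stayed within 1.5 times under all 15 alternatives, at 5532 to 6510 with a library left out, 6032 without a filter, 6371 with a filter of 2 CPM, 6505 with median-of-ratios, 6238 with quantile scaling and 6808 in the fit of 12 libraries. With median-of-ratios scaling 5463 of the 6684 genes passed again. The replicate block gave 6732 genes. The correlations of same-numbered libraries, after the group means were removed, were 0.000408, -0.0535 and -0.0121. No effect shared by same-numbered libraries was seen, but with 3 libraries per group this cannot show whether the samples were paired. With the block Scn2a kept its call. The count for change in set 7 minus change in set 8, 3114, became 2223 without a filter and 2368 to 3273 with a library left out. Scn2a was not called without a filter on low values (0.54), with quantile scaling (0.36) or without CRISPRa replicate 3, and ranged over 0.47 to 0.59 with a library left out. The value of Rn7s1, not called, was called without CRISPRa replicate 1 (-2.36) and turned sign without CRISPRa replicate 2 (0.23). Adm and Scn3b, not called, fell with quantile scaling (-0.51 and -0.37). Of 134 named genes that passed, 127 kept call and direction under every alternative in which they were tested. Some were not tested in all: Ccn2, Or2v1 and Rps2-ps13 missed the filter with a CRISPRa library left out. Mitochondrial genes were not tested in CPM without them. The other 7 lost the call under at least 1 alternative: Scn2a, Scn8a, Scn9a, Galnt3, H4c9, Actg1 and Peg13. Of 320 set difference values for the 16 genes named by that rule, 312 kept their call. The ratio of the sadCas9-VP64 transcript was 0.741 to 0.833 with a library left out, an alternative added after the data were seen, as was that for single named genes. Depth limits genes near 1 CPM, about 16 to 18 reads.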

Other observations

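Genes of sympathetic identity, used above only to check the cell line, were chosen here after their values were seen. Insm1, a zinc finger factor of neuroendocrine differentiation, had 72.1, 74.6 and 63.1 CPM in CRISPRa libraries, against 121, 130.3 and 126 CPM in VP64-only libraries, a change of -0.84 ± 0.06 (limma adjusted p = 3.68e-08). Dbh, the enzyme that makes noradrenaline, had 28.2, 26.8 and 24 CPM in CRISPRa libraries, against 42.7, 43.8 and 49.2 CPM in VP64-only libraries (-0.77 ± 0.08). Gata2, a factor of the sympathetic lineage, had 238, 253 and 229.6 CPM in CRISPRa libraries, against 170.3, 175 and 185 CPM in VP64-only libraries (0.44 ± 0.05). The groups were separate in Insm1, Dbh and Gata2, and the genes moved in both directions.

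Among markers of other cell types, the fibrillar collagen gene Col1a2 had 15.1, 14.2 and 12.8 CPM in CRISPRa libraries, against 3.56, 3.46 and 5.33 CPM in VP64-only libraries (1.68 ± 0.16). The fibroblast marker Pdgfra did not share this rise. It had 13.2, 14.1 and 12.2 CPM with the guide and 14.1, 16.8 and 14 CPM without it (-0.18 ± 0.11), and did not pass. Col1a1 and Dcn stayed under 1 CPM in all 6 libraries. Cdh5, the endothelial cadherin, had 1.81, 1.56 and 2.17 CPM in CRISPRa libraries, against 0.187, 0.0586 and 0.303 CPM in VP64-only libraries. As said above, it passed the filter only through its CRISPRa libraries and so had to differ. The summed level of the 6 fibroblast markers was 25.8 to 29.3 CPM in CRISPRa libraries and 18.4 to 20.9 CPM in VP64-only libraries, with Lum and Thy1 at 0 in all 6, and that of the 4 endothelial markers was 8.51 to 8.67 and 4.93 to 6.78 CPM, with Cldn5 at 0.

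Other promoter elements were searched in the same windows. The C/EBP-ATF element TGATGNAA stood in 6 of 31 stress response genes (19.4%), against 2.44% of genes tested with a window and 3.45% of all windows. It also stood in 5 of 51 antiviral effectors (9.8%) and 1 of 20 immediate early genes (5%). The CArG box bound by SRF stood in 3 of 20 immediate early genes (15%), against 1.5% of genes tested with a window, and in 1 of 28 hypoxia genes (3.57%).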
